A study of Mus musculus with 6 samples.

Results

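The genes described here encode products that Sertoli cells secrete: the hormone subunits Inha, Inhba and Inhbb, the carrier proteins Trf, Ptgds, Shbg and Clu, the protease Ctsl and the cystatins Cst9 and Cst12. They were found by matching the RefSeq transcript accession of each row, without its version, to these 10 mouse symbols. A row was found for 9 of the 10 genes, 1 row each, among the 25631 rows of the table, and Cst12 was not analysed here. Testis RNA of male mice at postnatal day 9 was measured in 6 samples, each on its own NimbleGen array. The 3 control samples were Cre-negative and the 3 Dmrt1 KO samples were Cre-positive in a line named NGN-cre in the labels. Sertoli cells and germ cells both express Dmrt1, which encodes a DNA-binding regulator. The labels do not say which promoter drives that Cre, in which cells it acts, which Dmrt1 alleles either group carried, or whether a sample came from 1 animal or several. Since all controls lacked Cre and all Dmrt1 KO samples had it, the effects of Cre and of Dmrt1 targeting cannot be told apart.

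Sertoli cells surround the germ cells in the seminiferous tubule, and once the blood-testis barrier has formed, germ cells beyond it depend on what the Sertoli cells secrete. Inhibins join the alpha subunit to a beta subunit and lower the release of FSH by the pituitary, while activins are dimers of beta subunits alone and raise it. Transferrin carries iron to the germ cells, and other products carry androgens, lipids or retinoids, protect proteins outside the cell from aggregating, or cut the matrix around the tubule.

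The values are log2 of the deposited intensity, and a difference is the mean of the Dmrt1 KO arrays minus the mean of the control arrays on that scale. The arrays had median intensities between 498.1 and 543.8. Least like the rest was Dmrt1 KO replicate 3, with Pearson's r of log2 intensity between 0.966 and 0.973 to the other arrays, where no other pair of arrays fell below 0.978; r is across rows, which are not independent replicates. The targeted gene was lower in every Dmrt1 KO array, with means of 13.43 in the control and 12.11 in the Dmrt1 KO arrays. Its difference was -1.32 ± 0.20 (SE, n = 3 arrays per group, limma adjusted p = 0.124). Testing only the brighter 50% of rows gave Dmrt1 a limma adjusted p of 0.019. All 9 genes lay above 7.19 in all 6 arrays, the 95th percentile of the mean levels of 1064 olfactory receptor rows, which served as a guide to background. All 19 measured Sertoli cell markers, Sox9, Gata4 and Wt1 among those listed, had a level above that guide in at least 1 array. The RNA came from whole testis, so fewer cells of a type and less RNA per cell cannot be told apart in any of these values.

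None of the 9 genes passed the test, which was limma's moderated test with p adjusted over all rows by Benjamini-Hochberg at a threshold of 0.05. Trf, Ptgds, Inhba and Inhbb were nevertheless higher in all 3 Dmrt1 KO arrays than in any control array, and Ctsl was lower in all 3, while Inha, Clu, Shbg and Cst9 overlapped between the groups. The test called 8 of 25631 rows, or 0.0312% of the table. At an unadjusted p of 0.05 it called 2 of the 9 genes higher, Trf and Ptgds, and 0 lower, where 4.41% of all rows were higher and 5.10% lower. Groups did not overlap in 4 of the 9 genes in the upward direction, against 6.80% of all rows, and in 1 of 9 in the downward direction, against 8.54%. The median difference of the 9 genes was 0.15, beside -0.02 over all rows, and 6 of the 9 lay above 0, as did 48.0% of all rows. The genes were chosen with earlier results of these arrays known, so these shares describe them and test nothing.

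**Figure D1:**
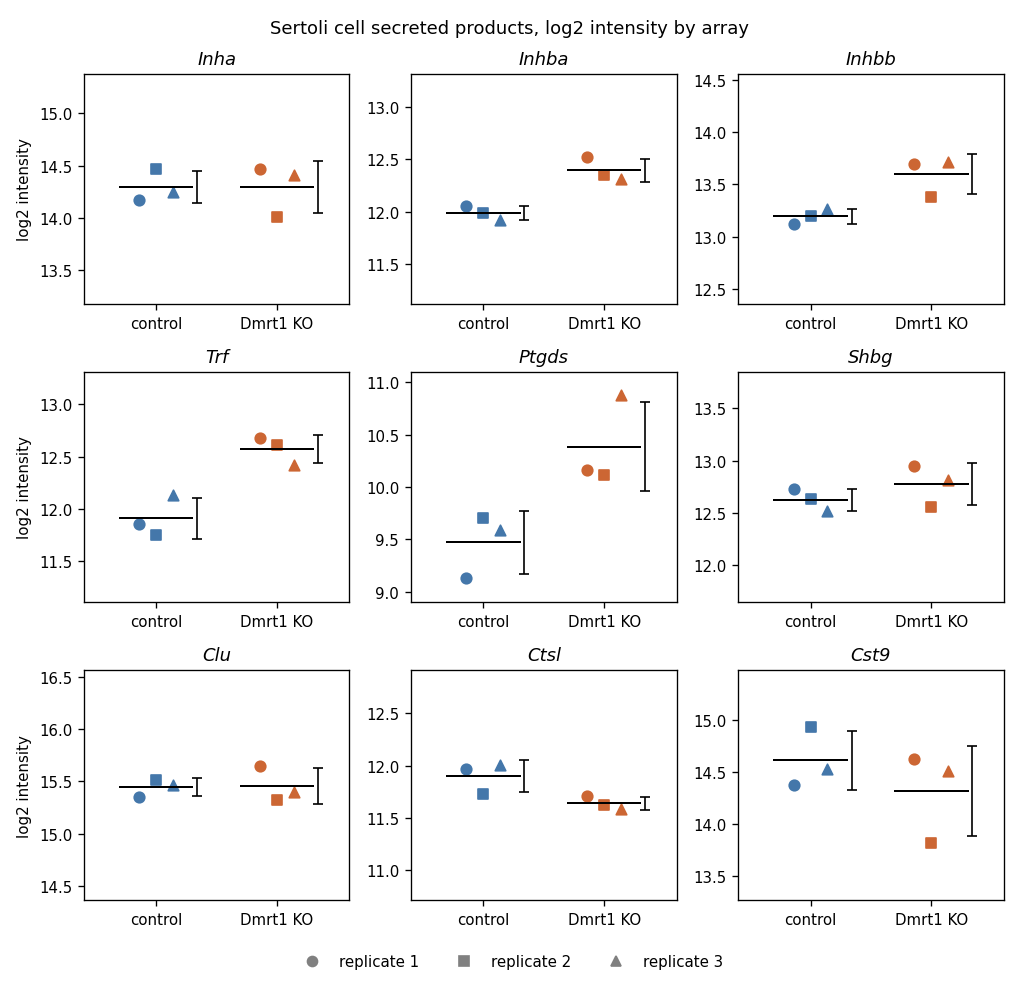
Log2 intensity (y axis) of each of the 9 measured genes in the 3 control arrays (blue) and the 3 Dmrt1 KO arrays (orange), with symbols for replicates, the group mean as a line and the SD as a bar; every panel spans the same range of log2 units. In Trf, Ptgds, Inhba and Inhbb the orange points all lie above the blue ones, and in Ctsl all lie below.

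None of the 3 hormone subunits passed the test. Inhba and Inhbb were higher without overlap, and Inha overlapped between the groups. Inha, measured by accession NM_010564, encodes the alpha subunit that makes a dimer an inhibin. Per-array values below are log2 intensity in the order of replicates 1, 2 and 3. Inha read 14.17, 14.47 and 14.25 on the control arrays, against 14.47, 14.01 and 14.41 on the Dmrt1 KO arrays. The groups overlapped fully, with the highest value in a control array and the lowest in Dmrt1 KO replicate 2. The group means were equal at 14.30, with a 95% interval of the difference from -0.49 to 0.49 (limma adjusted p = 1.0). The array number in each title begins in 3 ways, which split the arrays into 3 groups, and Inha went in opposite directions within them: its difference was 0.30 in group 1, which holds replicate 1 of each genotype, and -0.35 in group 2, which holds replicate 2 of each genotype and control replicate 3. Dmrt1 KO replicate 3 is alone in group 3.

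Inhba (NM_008380) encodes the beta A subunit, which forms activin A with itself and inhibin A with the alpha subunit. Control arrays gave 12.06, 11.99 and 11.92 and Dmrt1 KO arrays gave 12.52, 12.35 and 12.31. The lowest Dmrt1 KO array lay above the highest control. The difference was 0.41 ± 0.18 (SE, n = 3 arrays per group), or 1.33-fold, with a 95% interval from -0.02 to 0.83 and a limma adjusted p of 0.542. It was 0.46 within array number group 1 and 0.40 within group 2.

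Inhbb (NM_008381) encodes the beta B subunit, the partner of the alpha subunit in inhibin B, which is the main circulating inhibin of males. The control values were 13.12, 13.20 and 13.26 and the Dmrt1 KO values 13.70, 13.38 and 13.72. Dmrt1 KO replicate 2 lay only a little above control replicate 3, and the other Dmrt1 KO arrays were clear of the controls. The difference was 0.40 ± 0.20 (SE, n = 3 arrays per group), or 1.32-fold, with a 95% interval from -0.05 to 0.85 and a limma adjusted p of 0.563. Within array number groups 1 and 2 it was 0.57 and 0.15.

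The ratio of each beta subunit to the alpha subunit was computed within each array, a measure chosen after these values were seen. Each ratio is given relative to the mean ratio of the controls, since levels of different probes cannot be set against each other. For Inhba over Inha the log2 ratio was 0.19, -0.17 and -0.02 in the control arrays and 0.36, 0.65 and 0.21 in the Dmrt1 KO arrays. The groups were separated by a narrow gap between control replicate 1 and Dmrt1 KO replicate 3. For Inhbb over Inha the log2 ratio was 0.05, -0.18 and 0.12 in the control arrays and 0.33, 0.47 and 0.41 in the Dmrt1 KO arrays, again without overlap. Because the group means of Inha were equal, the mean ratio differences of 0.41 and 0.40 restate the differences of Inhba and Inhbb alone. Each ratio difference had an exact two-sided permutation p of 0.1, the smallest that 3 arrays against 3 can give. Neither can therefore pass a threshold of 0.05. Without control replicate 2 they were 0.32 for both ratios, and without Dmrt1 KO replicate 2 they were 0.29 for Inhba and 0.37 for Inhbb. The ratio of Inhbb to Inhba overlapped between groups and differed by 0.00 on average (exact two-sided permutation p = 1.0).

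**Figure D2:**
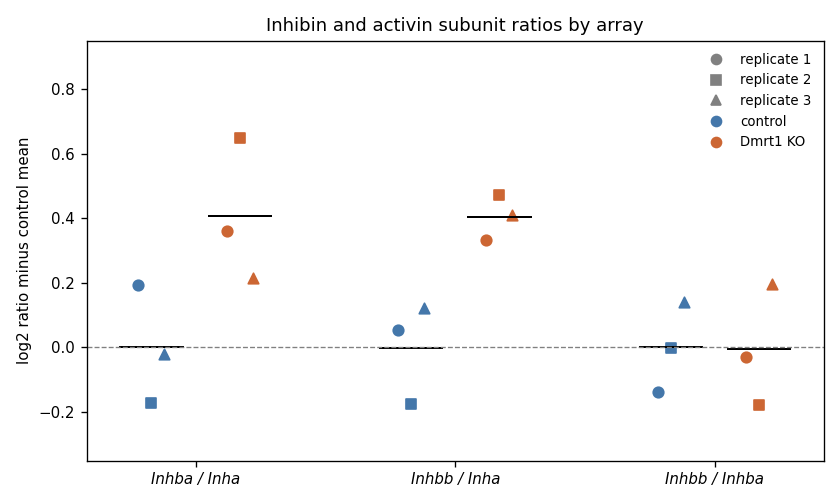
Log2 ratio of inhibin and activin subunits within each array, minus the mean of the control arrays (y axis), for 3 ratios in control (blue) and Dmrt1 KO (orange) arrays; lines are group means. Both ratios of beta to alpha are higher in all 3 Dmrt1 KO arrays, while the ratio of the beta subunits overlaps.

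The stretch before the transcription start is shown for the subunit genes because both beta genes were higher without overlap and Inha overlapped. Each is the 250 bases upstream of a start that RefSeq lists on build GRCm38.p6, printed 5′ to 3′ on the strand of the gene. The positions are chr1:75507359-75507608, plus strand for Inha, chr13:16011601-16011850, plus strand for Inhba and chr1:119422249-119422498, minus strand for Inhbb. Capitals mark matches, on either strand, to 6 motifs. Core letters of SOX factor sites are ACAAAG, with the variant ACAATG. Letters within the motif known for DMRT1 are ACAATGT, which overlap the second SOX core. The others are the cyclic AMP response half-site TGACG, the nuclear receptor half-site AGGTCA and the TATA box, TATAAA.
Inha: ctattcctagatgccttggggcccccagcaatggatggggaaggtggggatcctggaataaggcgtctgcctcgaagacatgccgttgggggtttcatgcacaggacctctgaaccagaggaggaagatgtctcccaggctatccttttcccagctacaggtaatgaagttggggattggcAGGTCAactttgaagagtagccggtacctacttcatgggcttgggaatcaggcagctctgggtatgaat
Inhba: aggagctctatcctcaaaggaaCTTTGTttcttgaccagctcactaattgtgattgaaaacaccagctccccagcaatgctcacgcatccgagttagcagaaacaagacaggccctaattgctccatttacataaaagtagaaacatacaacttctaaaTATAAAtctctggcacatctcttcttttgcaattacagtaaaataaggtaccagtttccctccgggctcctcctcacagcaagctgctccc
Inhbb: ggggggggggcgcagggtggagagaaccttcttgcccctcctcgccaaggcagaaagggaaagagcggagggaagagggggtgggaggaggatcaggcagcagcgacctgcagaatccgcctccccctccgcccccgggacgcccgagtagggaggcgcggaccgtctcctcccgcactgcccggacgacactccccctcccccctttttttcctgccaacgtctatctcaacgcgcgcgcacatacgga
Inha held AGGTCA at 69 to 64 bases before the start, a motif found in 14.0% of the 32851 RefSeq upstream stretches of this length. Inhba held CTTTGT, the reverse complement of ACAAAG, at 228 to 223 bases and TATAAA at 91 to 86 bases. These motifs were found in 16.5% and 12.4% of all stretches. The Inhbb stretch held none of the 6 motifs, which says only that these letters are not in this window. ACAATGT was in 2.56% of all stretches, ACAATG in 10.7% and TGACG in 17.8%, and none of these 3 was in the Inha, Inhba or Inhbb stretch. The motifs marked in Inhba were also found upstream of genes that overlapped between the groups and are not printed. Cst9 held CTTTGT at 152 to 147 bases, and Shbg held TTTATA, the reverse complement of TATAAA, at 176 to 171 bases.

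Among the carriers, Ptgds and Trf had the largest differences of the 9 genes. Trf (NM_133977) encodes transferrin, the iron carrier, long used as a measure of Sertoli cell secretion. It measured 11.86, 11.75 and 12.13 on the control arrays, and 12.68, 12.61 and 12.42 on those of the Dmrt1 KO group. The groups did not overlap, and control replicate 3 and Dmrt1 KO replicate 3 were the nearest arrays. The difference was 0.66 ± 0.20 (SE, n = 3 arrays per group), or 1.58-fold, with a 95% interval from 0.19 to 1.12 and a limma adjusted p of 0.365. It was 0.82 within array number group 1 and 0.68 within group 2, and 94.8% of all rows had a lower difference.

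Ptgds (NM_008963) encodes lipocalin-type prostaglandin D synthase, which makes prostaglandin D2 and also binds retinoids and other lipids outside the cell. In the fetal testis of mice, prostaglandin D2 acts in the same direction as Sox9 in Sertoli cell differentiation. Levels of Ptgds were 9.13, 9.70 and 9.59 in the controls and 10.16, 10.12 and 10.88 in the Dmrt1 KO samples. Dmrt1 KO replicate 3 was the highest array and control replicate 1 the lowest, and the groups did not overlap. The difference was 0.91 ± 0.28 (SE, n = 3 arrays per group), or 1.88-fold, with a 95% interval from 0.27 to 1.55 and a limma adjusted p of 0.363. It was 1.04 within array number group 1 and 0.47 within group 2, and 0.67 without Dmrt1 KO replicate 3, the array that stood apart. By the smallness of its p, Ptgds was number 778 of the 25631 rows and Trf number 803.

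The 250 bases upstream of the RefSeq start of Ptgds, at chr2:25469750-25469999, minus strand on build GRCm38.p6, are shown because Ptgds had the largest difference, with the same motifs searched. The TATA-like letters ATAAATA were added to the search after this sequence had been read.
Ptgds: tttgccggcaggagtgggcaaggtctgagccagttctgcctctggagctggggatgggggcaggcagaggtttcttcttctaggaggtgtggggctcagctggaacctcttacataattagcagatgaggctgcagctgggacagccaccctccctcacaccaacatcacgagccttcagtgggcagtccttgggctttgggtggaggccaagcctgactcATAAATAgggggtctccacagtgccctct
The match to ATAAATA lies 29 to 23 bases before the start, and 5.17% of all stretches hold those letters. The window held no match to the other 6 motifs.

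Markers of other cell types that can express these carriers were measured in the same arrays, and their part in the differences was not tested. All 8 Leydig cell markers lay above 0, with a median difference of 0.30, and their summed intensity ran from 75706 to 97235 in the control arrays and from 108539 to 124506 in the Dmrt1 KO arrays. None passed an unadjusted p of 0.05 in limma, and the steroidogenic genes Hsd17b3, Cyp17a1, Hsd3b1 and Star differed by 0.45 ± 0.20, 0.52 ± 0.26, 0.33 ± 0.21 and 0.43 ± 0.34 (SE). Without control replicate 2 Cyp17a1 was 0.25 and Star 0.11, and without control replicate 3 Star was 0.71. Markers of the epididymis and rete, duct tissue in which Ptgds and Clu are also made, lay above 0 in 9 of 12 genes, and their summed intensity ran from 2503 to 4336 in the control arrays and from 5000 to 8164 in the Dmrt1 KO arrays. Such a sum is weighted towards its brightest genes. Pax8 had means of 10.71 in the control and 11.85 in the Dmrt1 KO arrays. In every array it was above Krt19, Krt8, Rnase10 and Crisp1, which are also on the list. Of that list 3 genes were higher and 1 lower at an unadjusted p of 0.05. The transcription factor gene Pax8 differed by 1.14 ± 0.23, the keratin genes Krt19 and Krt8 by 1.05 ± 0.40 and 0.96 ± 0.41 and the ribonuclease gene Rnase10 by -1.12 ± 0.26 (SE). With log2(value + 50) Rnase10 was -0.45, and without Dmrt1 KO replicate 2 Krt19 was 0.69. Krt19 and Krt8 overlapped between the groups. Krt8 was above the background guide in 2 arrays only, with a control mean of 6.26. Its difference was -0.005 within array number group 1, and 0.68 with log2(value + 50). Of the defining secretory genes of the epididymis, Lcn5, Lcn8, Lcn9, Adam7, Rnase9 and Rnase10 were below the background guide in every array. Gpx5, also on that list, was above the guide in at least 1 array. Crisp1, another, was at 9.70, 4.11 and 6.49 in the control arrays and 9.73, 10.96 and 4.46 in the Dmrt1 KO arrays.

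**Figure D3:**
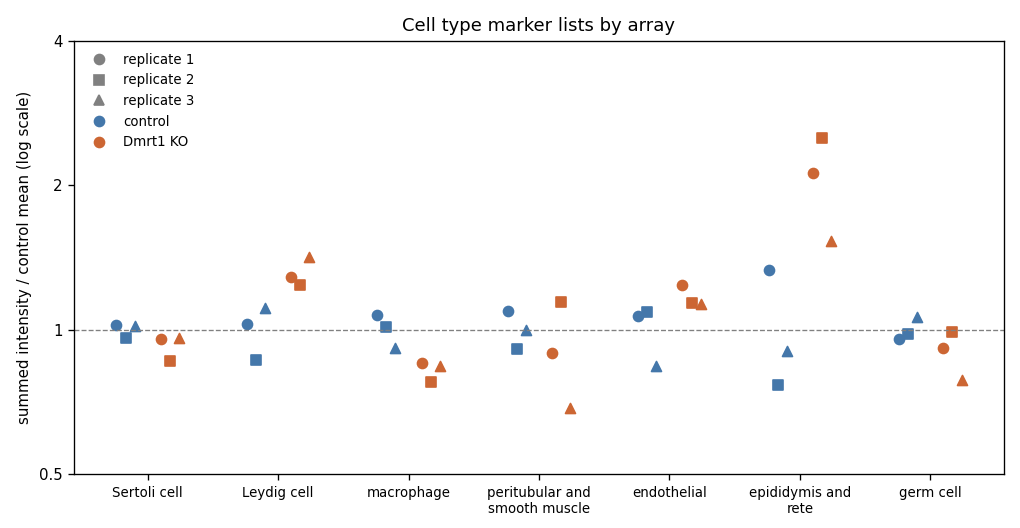
Summed linear intensity of each cell type marker list in each array, divided by the mean of the 3 control arrays (y axis, log scale), for control (blue) and Dmrt1 KO (orange) arrays. The Leydig cell, the epididymis and rete and the endothelial sums are higher in all 3 Dmrt1 KO arrays, and the macrophage sums are lower in all 3. Linear sums are weighted towards the brightest genes of a list.

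Shbg (NM_011367) encodes the androgen binding protein of the testis, known in the blood as sex hormone-binding globulin. Control arrays gave 12.73, 12.63 and 12.52, and Dmrt1 KO arrays 12.95, 12.56 and 12.82. Dmrt1 KO replicate 2 lay among the controls and the other Dmrt1 KO arrays lay above them. The difference was 0.15 ± 0.20 (SE, n = 3 arrays per group), with a 95% interval from -0.31 to 0.61 and a limma adjusted p of 0.871.

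Clu (NM_013492) encodes clusterin, an extracellular chaperone and lipid carrier that is among the most abundant secreted proteins of Sertoli cells. Controls stood at 15.35, 15.51 and 15.47 and Dmrt1 KO samples at 15.65, 15.32 and 15.40. The highest and the lowest value both belonged to Dmrt1 KO arrays. The difference was 0.01 ± 0.19 (SE, n = 3 arrays per group), with a 95% interval from -0.44 to 0.46 and a limma adjusted p of 0.993. Linear intensity of Clu reached 51278 in Dmrt1 KO replicate 1, against 65190 for the highest value in the table.

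Ctsl (NM_009984) encodes cathepsin L, a cysteine protease that Sertoli cells of the rat secrete in a stage-dependent way. It read 11.97, 11.73 and 12.01 in the controls and 11.71, 11.63 and 11.58 in the Dmrt1 KO samples. All 3 Dmrt1 KO arrays were lower than all controls, but Dmrt1 KO replicate 1 lay just below control replicate 2. The difference was -0.26 ± 0.19 (SE, n = 3 arrays per group), with a 95% interval from -0.70 to 0.17 and a limma adjusted p of 0.724. Its value was near the same within array number groups 1 and 2, at -0.26 and -0.24.

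The Ctsl stretch before the RefSeq start, chr13:64370521-64370770, minus strand on build GRCm38.p6, is shown because Ctsl was the only gene of the 9 that was lower without overlap.
Ctsl: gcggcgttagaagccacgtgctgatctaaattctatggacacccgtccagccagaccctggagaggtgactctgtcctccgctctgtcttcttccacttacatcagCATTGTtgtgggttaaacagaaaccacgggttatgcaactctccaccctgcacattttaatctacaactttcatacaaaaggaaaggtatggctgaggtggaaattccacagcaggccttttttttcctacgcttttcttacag
It held CATTGT, the reverse complement of ACAATG, at 144 to 139 bases before the start, and no other motif of those searched. ACAATG was found in 10.7% of all stretches. The arrays do not show whether this listed start is the one used in the testis.

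Cst9 (NM_009979) encodes testatin, a cystatin-related protein first known from the fetal mouse gonad at the time of testis formation. Testatin transcript measured 14.37, 14.92 and 14.53 in the controls and 14.62, 13.82 and 14.51 in the Dmrt1 KO samples. Dmrt1 KO replicate 2 was the lowest array and control replicate 2 the highest, and the remaining 4 lay between. The difference was -0.29 ± 0.28 (SE, n = 3 arrays per group), with a 95% interval from -0.93 to 0.34 and a limma adjusted p of 0.809. It was 0.24 within array number group 1 and -0.90 within group 2, and -0.05 if Dmrt1 KO replicate 2 was left out.

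Of the Dmrt1 KO arrays, replicate 2 was the lowest for Inha, Inhbb, Ptgds, Shbg, Clu and Cst9, and replicate 3 for Inhba, Trf and Ctsl. The median deviation of the 9 genes from the control mean was 0.33 in Dmrt1 KO replicate 1, -0.07 in replicate 2 and 0.19 in replicate 3. Summed intensity of the Sertoli cell markers was also lowest in Dmrt1 KO replicate 2, at 225562, against 250906 and 251902 in the other Dmrt1 KO arrays and 251819 to 268205 in the controls. Whether the Sertoli cell share of the RNA plays a part in this was not tested.

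**Figure D4:**
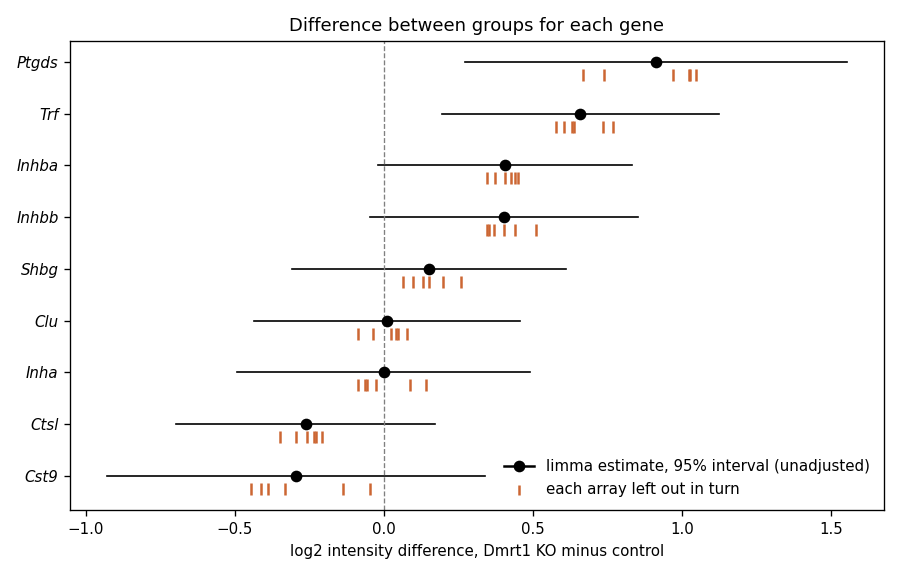
Difference in log2 intensity, Dmrt1 KO minus control (x axis), for each of the 9 genes, with the limma estimate and its unadjusted 95% interval (black) and the estimate with each array left out in turn (orange ticks). The intervals of Ptgds and Trf lie above 0, those of the other 7 genes include 0, and the ticks of Inha and Clu fall on both sides of 0.

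Genes around these products were read from lists, of which none had a member past the adjusted threshold. For activin and inhibin signalling, 8 of 16 measured genes lay above 0 and 8 below, with a median of -0.01, and at an unadjusted p of 0.05 there were 0 higher and 1 lower. That gene was Inhbe, a beta subunit gene known from liver (difference -0.98 ± 0.27, SE, limma adjusted p = 0.319), and both its group means lay below the background guide. With log2(value + 50) its difference was -0.43. Inhbc, its relative, also below the guide, differed by 0.25 ± 0.22 (SE). The activin receptor genes Acvr2a and Acvr2b differed by -0.24 ± 0.22 and -0.23 ± 0.23 (SE).

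For iron transport and storage, 9 of 18 measured genes lay above 0, the median was 0.00, and 0 genes passed an unadjusted p of 0.05 in either direction. The genes with the smallest p were Hfe, a regulator of iron uptake (-0.49 ± 0.25, SE), Tfr2, a transferrin receptor gene (-0.37 ± 0.21), Aco1, which encodes an iron-sensing RNA binding protein (0.38 ± 0.21), and Hamp, the hepcidin gene (0.52 ± 0.30, both group means below the guide). Tfr2 was lower and Aco1 higher in all 3 Dmrt1 KO arrays, with -0.23 for Tfr2 without control replicate 1 and 0.25 for Aco1 without Dmrt1 KO replicate 1. Hamp was 0.25 with log2(value + 50).

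For prostaglandin synthesis and response, 8 of 16 measured genes lay above 0, the median was 0.02, and 2 were higher and 0 lower at an unadjusted p of 0.05. Ptgs2, the inducible cyclooxygenase gene that supplies the substrate of the prostaglandin synthases, had a difference of 2.25 ± 0.80 (SE, limma adjusted p = 0.430). It was 0.80 and 3.43 within array number groups 1 and 2, and 1.46 with log2(value + 50). Control and Dmrt1 KO arrays overlapped, with 7.96 in control replicate 1 and 7.41 in Dmrt1 KO replicate 3. The control mean of 5.92 lay below the guide. Ptges, a prostaglandin E synthase gene, had 0.82 ± 0.30 (SE, adjusted p = 0.448) without overlap between groups, and 0.52 without control replicate 2. Ptges3 had 0.22 ± 0.19 and the transporter gene Abcc4 0.52 ± 0.29 (SE), the latter 0.27 without Dmrt1 KO replicate 1.

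Of the other cystatins 7 of 14 measured lay above 0, the median was 0.00, and 3 were higher and 0 lower at an unadjusted p of 0.05. Fetub, which encodes a cystatin-like protein that inhibits an egg-coat protease, had the largest difference of the list, 1.10 ± 0.21 (SE, limma adjusted p = 0.190), with all 3 Dmrt1 KO arrays above all controls. With the lowest 50% of rows left out its adjusted p was 0.0436. Cst7 differed by 0.79 ± 0.21 and Hrg by 0.66 ± 0.28 (SE), each with at least 1 group mean below the guide, and Hrg was 0.25 with log2(value + 50). Cst8, a reproductive cystatin near Cst9 in kind, differed by 0.43 ± 0.22 (SE).

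Of the other cathepsins 11 of 21 measured lay above 0, the median was 0.11, and 1 was higher and 0 lower at an unadjusted p of 0.05. Ctsc, which activates the granule proteases of leukocytes, differed by 1.82 ± 0.64 (SE, limma adjusted p = 0.424), with a control mean of 6.93 below the guide. Ctse, Ctsa and Ctsj differed by 0.36 ± 0.23, 0.42 ± 0.27 and 0.39 ± 0.38 (SE), the last below the guide in both groups. Without control replicate 1 Ctse was 0.23, without control replicate 2 Ctsa was 0.19, and without Dmrt1 KO replicate 3 Ctsj was -0.03.

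On a list of receptors for clusterin, hormone carriers and hormones, 6 of 8 measured genes lay above 0, with a median of 0.12. At an unadjusted p of 0.05, 0 were higher and 1 lower. The lower gene was Lrp8, an LDL receptor family member that binds clusterin and selenoprotein P. Its difference was -0.91 ± 0.20 (SE, n = 3 arrays per group, limma adjusted p = 0.236), no overlap between the groups, and -0.92 and -0.81 within array number groups 1 and 2. Esr2, Lrp1 and Trem2 differed by 0.32 ± 0.34, 0.14 ± 0.19 and 0.20 ± 0.28 (SE), with Trem2 below the guide.

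Of 25 measured other Sertoli cell secreted products 17 lay above 0, the median was 0.14, close to the 0.15 of the 9 genes, and 1 was higher and 1 lower at an unadjusted p of 0.05. Pdgfa, a growth factor for Leydig cell and myoid cell precursors, differed by 0.53 ± 0.19 (SE, limma adjusted p = 0.423), and Il1a by -0.90 ± 0.32, with its levels below the guide and -0.51 with log2(value + 50). Igf1 differed by -0.40 ± 0.20 and Fgf9 by 0.33 ± 0.19 (SE). The Sertoli cell markers, by contrast, lay below 0 in 12 of 19 measured genes, with a median of -0.13, and 0 higher and 1 lower at an unadjusted p of 0.05, but the difference between these lists was not tested. Nr0b1 and Gata1, transcription factor genes of Sertoli cells, differed by -0.64 ± 0.24 and -0.53 ± 0.23, and Dhh and Amh, which encode secreted signals and also stand among the secreted products, by 0.39 ± 0.25 and 0.42 ± 0.27 (SE). Blocked on array number group Dhh was 0.16 and Amh 0.21. Without Dmrt1 KO replicate 3 Dhh was 0.20, and Amh was 0.28 without Dmrt1 KO replicate 1 and 0.69 without Dmrt1 KO replicate 2.

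**Figure D5:**
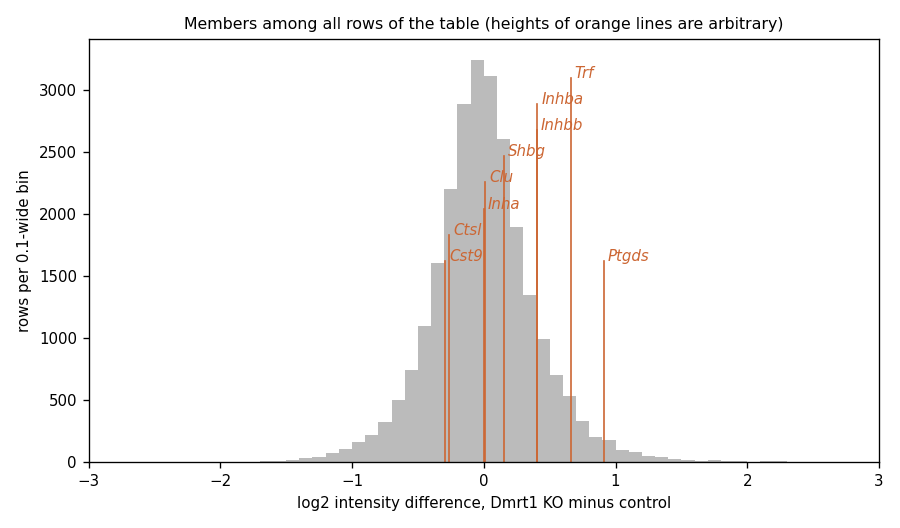
Number of rows (y axis) by log2 difference, Dmrt1 KO minus control (x axis, bins of 0.1), over the rows between -3 and 3, with the 9 genes marked by orange lines whose heights carry no meaning. Ptgds and Trf lie in the upper tail of all rows and Inhba and Inhbb on its inner slope. Inha, Clu and Shbg lie near the centre, and Ctsl and Cst9 on the lower slope.

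The remaining marker lists give the other cells of the testis, again with 0 genes past the adjusted threshold. All 9 measured macrophage markers lay below 0, with a median of -0.25 (0 higher and 1 lower at an unadjusted p of 0.05), and summed intensity of 14894 to 17453 in the control arrays and 12652 to 13886 in the Dmrt1 KO arrays. Cd163, C1qa, Mrc1 and Adgre1 in it differed by -1.15 ± 0.30, -0.50 ± 0.25, -0.40 ± 0.23 and -0.43 ± 0.29 (SE). The Dmrt1 KO mean of Cd163 was 6.39, below the guide, and its difference was -0.8 with log2(value + 50). Adgre1 was -0.12 without control replicate 1, Mrc1 -0.25 without Dmrt1 KO replicate 1 and C1qa -0.27 without Dmrt1 KO replicate 3. Germ cell markers lay above 0 in 3 of 12 genes, with a median of -0.21 and summed intensity of 145398 to 161543 and 119515 to 150070, and 1 gene was higher and 2 lower at an unadjusted p of 0.05. Stra8, which is needed for entry into meiosis, differed by -1.63 ± 0.27, Dmc1, a meiotic recombinase gene, by -1.14 ± 0.37, Sohlh1, a regulator of spermatogonia, by 0.50 ± 0.20 and Sycp1, of the synaptonemal complex, by -0.48 ± 0.24 (SE), the last -0.30 without control replicate 2. Endothelial markers lay above 0 in 5 of 6 genes (median 0.14, and 0.01 to 0.24 with 1 array left out, the lowest being without control replicate 3; sums 11746 to 15225 and 15800 to 17291), and the median of 6 peritubular and smooth muscle markers was 0.08 (sums 15871 to 19020 and 11960 to 19858). At an unadjusted p of 0.05 the endothelial list had 1 gene higher and 0 lower, and the myoid list 0 higher and 1 lower. Pecam1, Egfl7, Vwf and Kdr differed by 0.62 ± 0.23, -0.27 ± 0.25, 0.21 ± 0.25 and 0.13 ± 0.20, and Lmod1, Myh11, Cnn1 and Acta2 by -0.66 ± 0.23, -0.25 ± 0.25, 0.45 ± 0.52 and 0.12 ± 0.26 (SE), with Cnn1 at -0.23 without Dmrt1 KO replicate 3.

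The genes whose levels varied over the 6 arrays most like Trf were sought among 17276 others, by the root mean square difference of log2 values, each centred on its own mean. They were Macroh2a2, a histone variant gene (0.05), Gstp2, a glutathione transferase gene (0.08), and Tbcd, a tubulin folding cofactor gene (0.08), whose differences were 0.60 ± 0.21, 0.63 ± 0.19 and 0.57 ± 0.22 (SE). All 3 lay above the guide. For Ptgds the nearest were C4bp (0.13), Olfr328 (0.13) and Olfr550 (0.14). C4bp and Olfr550 lay below the guide in both groups, and Olfr328 and Olfr550, which encode olfactory receptors, are among the rows from which the guide was taken.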

How the data were processed

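Cy3-labelled material from total testis RNA was hybridised to NimbleGen mouse arrays of a design that the labels' protocols call MM8. The deposited table holds linear intensity, from 8.81 to 65190, with 1 value per RefSeq transcript accession, and the authors used RMA, per the submitters' processing notes. Its version and background step, and where in a gene the probes lie, are not stated in the labels.

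After taking log2, lmFit and eBayes of limma 3.58.1 (R 4.3.3) were run over all 6 arrays, with no filter or covariate and Benjamini-Hochberg adjustment over 25631 rows. SE and 95% intervals are limma's, on 4 residual and 3.96 prior degrees of freedom, and intervals are not adjusted. The annotation of GRCm38.p6 named 17780 rows for 17277 genes, and the row with the highest mean stood for a gene with several. All deposited columns were used. Samples were grouped by title and genotype label. Replicates are numbered in deposition order and are not paired. The labels do not say that samples came from separate animals, so p-values reflect the spread among these samples, which may be technical. The number of arrays limits the precision.

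The 10 genes and 14 lists (196 genes, 187 measured) were chosen with earlier results of these data known. The rule for naming took every row of these genes, Dmrt1, Crisp1, up to 4 genes of each list with the smallest p, and the 3 genes most like Trf and Ptgds. The test was tried on simulated data. Alternatives were quantile normalization, subtraction of array medians, log2(value + 50), leaving out the lowest 50% of rows, trend and robust eBayes, array number group as a block, the mean of a gene's rows and leaving out each array. Upstream sequences are from RefSeq on GRCm38.p6, where 8 of the 10 genes had an entry. Plots were made with matplotlib 3.10.9 (Python 3.11.15).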

Additional observations from a re-analysis of the deposited data

How the results depend on the processing

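None of the 9 genes passed the adjusted threshold under any of the 12 alternatives fitted with limma, of which 1 leaves out the lowest 50% of rows; the mean of a gene's rows does not apply to them, as each has 1 row. The adjusted p of Ptgds ran from 0.166 to 0.767 and that of Trf from 0.169 to 0.752, with differences of 0.67 to 1.05 and 0.58 to 0.77. Inhba ran from 0.34 to 0.45, Inhbb from 0.33 to 0.51, Shbg from 0.06 to 0.26, Ctsl from -0.35 to -0.21 and Cst9 from -0.44 to -0.05. At an unadjusted p of 0.05 Trf and Ptgds were called in each of them, Inhba and Inhbb joined with trend and robust eBayes, with log2(value + 50) and without the lowest 50% of rows, and Inhba also with quantile normalization and with array medians subtracted. Rows called higher at that threshold over all rows fitted numbered 1122, 1100, 552, 1158 and 1295 in these settings, in that order. They numbered 1490 when blocked on array number group, and 806 to 1504 with 1 array left out. All settings refit the same arrays, so repeated calls are not separate checks. The median of the 9 genes ran from 0.06 to 0.26 with 1 array left out. Inha was 0.030 with array medians subtracted and ran from -0.086 to 0.141 with 1 array left out. Clu was -0.005 after quantile normalization and ran from -0.085 to 0.077 with 1 array left out.

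The count of all rows called, 8 in the main test, was 49 when blocked on array number group, 81 with trend and robust eBayes and 52 without the lowest 50% of rows. With 1 array left out it ran from 0 to 47. It was 0 in limma without any 1 control or Dmrt1 KO replicate 2, where 806 to 1055 rows were higher and 816 to 1250 lower at the unadjusted threshold. It was 3 without the first Dmrt1 KO array and 47 without Dmrt1 KO replicate 3. Leaving out the lowest 50% of rows reduces the number tested. Dmrt1 KO replicate 3 is alone in array number group 3, so blocking takes that array out of the estimated difference. The counts of 49 when blocked and 47 without that array are therefore not separate checks. The cause of the other shifts was not tested. Among list genes, blocking turned Cnn1 to -0.215, Ctsj to -0.072 and Vwf to -0.033. With 1 array left out, Cnn1 ran from -0.232 to 0.893, Ctsj from -0.033 to 0.693, Vwf from -0.031 to 0.339, Acta2 from -0.124 to 0.272 and Trem2 from -0.014 to 0.459. Dmrt1, Pax8 and Stra8 passed with trend and robust eBayes and without the lowest 50% of rows, with adjusted p of 0.00314 and 0.019 for Dmrt1, and Fetub passed without the lowest 50% of rows. The epididymis and rete median of 0.41 was 0.14 with log2(value + 50), 1.09 without the lowest 50% of rows and 0.27 without Dmrt1 KO replicate 1. Over the 14 lists and 12 alternatives, a list's median moved by more than its spread over the Dmrt1 KO arrays 14 times and did not 154 times. No paired analysis was possible because replicate numbers follow the order of deposition.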
